A study of Homo sapiens with 6 samples.

Results

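Internal fragments of the mitochondrial tRNAs were followed in A375, an established human melanoma line, in 3 wild-type libraries and 3 DUS1L knockout libraries made by CRISPR/Cas9 editing. A fragment was included if it was typed as internal, was 16 to 41 nt long, and had a sequence found exactly in 1 of the 22 human mitochondrial tRNA genes with CCA added to the end. This gave 966 of the 3443 fragments in the table, with 3780 of 126840 counts (2.98%). The knockout cells were selected as clones, and the labels do not say how many clones the 3 libraries stand for. The wild-type cells were kept in parallel without targeting of DUS1L. Each library is called a biological replicate, so the spread behind each p-value is that of libraries and may not include that of clones. Counts of tRNA fragments hold no value for DUS1L, so its loss could not be checked here.

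Mitochondrial tRNAs are encoded in mitochondrial DNA and serve the small set of proteins made inside the organelle. They are transcribed as parts of long precursors, cut free at both ends, and given the CCA end by an enzyme that adds it after transcription. DUS1L reduces uridine to dihydrouridine at positions 16 and 17 of the D-loop, an activity described for cytoplasmic tRNAs. An internal fragment (internal tRF) is a piece that starts after the first base of a tRNA and stops before its 3' end. Positions are counted here along each tRNA from its first base, so they are not the standard numbers of tRNA sites, which differ from them where a mitochondrial tRNA has a short D-loop.

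The following lines show the mature tRNA with the fragment in capitals for each internal fragment that could be tested singly, the 3 most abundant of MT-TH, and the most abundant of each gene whose sum could be tested. They are given because the results turn on where these pieces begin and end. The tRNA sequences are from GENCODE release 29 (GRCh38) and the fragment sequences were decoded from the deposited identifiers.
tRF-17-9ZFH691 of MT-TF: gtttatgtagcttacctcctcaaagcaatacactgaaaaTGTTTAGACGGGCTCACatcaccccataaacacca
tRF-16-7XO8Q6D of MT-TF: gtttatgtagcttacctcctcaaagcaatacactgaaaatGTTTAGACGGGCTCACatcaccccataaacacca
tRF-33-BF82Z4D7OOJ0DW of MT-TH: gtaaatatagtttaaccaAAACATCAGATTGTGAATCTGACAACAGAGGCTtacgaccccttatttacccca
tRF-32-BQJE9UHY0DFK3 of MT-TH: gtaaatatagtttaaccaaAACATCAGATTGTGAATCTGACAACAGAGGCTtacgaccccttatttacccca
tRF-17-Z4D7OO2 of MT-TH: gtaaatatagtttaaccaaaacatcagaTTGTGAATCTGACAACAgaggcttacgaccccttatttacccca
tRF-29-RZYQHQ9M73KB of MT-TE: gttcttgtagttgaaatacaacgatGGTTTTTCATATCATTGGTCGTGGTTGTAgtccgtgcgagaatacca
tRF-16-JD22PZD of MT-TW: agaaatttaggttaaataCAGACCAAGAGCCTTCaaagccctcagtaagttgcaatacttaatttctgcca
tRF-18-NONU3IDP of MT-TV: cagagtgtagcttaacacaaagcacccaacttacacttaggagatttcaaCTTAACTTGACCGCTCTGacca
tRF-17-B2NZW7L of MT-TP: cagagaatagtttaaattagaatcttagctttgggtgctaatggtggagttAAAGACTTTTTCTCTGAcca
tRF-18-7BPN6I0B of MT-TY: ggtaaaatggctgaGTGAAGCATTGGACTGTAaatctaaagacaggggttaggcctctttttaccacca
tRF-19-DBNIB9FM of MT-TS2: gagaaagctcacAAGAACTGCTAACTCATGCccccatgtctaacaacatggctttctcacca
tRF-19-YU4QUEJ0 of MT-TR: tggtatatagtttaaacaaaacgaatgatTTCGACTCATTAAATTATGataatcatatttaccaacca
tRF-22-I9HDZW20Q of MT-TD: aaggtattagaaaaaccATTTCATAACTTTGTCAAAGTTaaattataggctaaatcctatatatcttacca
tRF-34-U0IO5BKD09Z5F0 of MT-TK: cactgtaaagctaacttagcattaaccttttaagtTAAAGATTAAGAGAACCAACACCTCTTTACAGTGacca

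Library totals ran from 15742 to 32754 counts, and internal mitochondrial fragments took 509 to 790 of them. Most were rare. In all, 538 of the 966 were counted once, 596 were seen in 1 library, and 39 were seen in all 6. All matched 1 gene at 1 position, and 13 of them (18 counts) also lay inside a nuclear transcript in GENCODE. Each of the 22 genes had at least 1 fragment, but the counts were concentrated. MT-TF held 33.3% of them, MT-TH 14.2%, MT-TV 13.0%, MT-TE 8.89% and MT-TS2 6.19%. Libraries of the same group were further apart than counting noise in every pair, with a chi-square per degree of freedom of 2.56 to 8.22, the highest value being that of wild-type replicates 1 and 3. Intervals from counting alone would therefore understate the error. The labels also name no molecular identifiers on the reads.

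As a share of all counts, internal mitochondrial fragments did not separate the groups. They took 2.09%, 3.41% and 4.29% in wild-type replicates 1, 2 and 3, and 2.55%, 3.17% and 3.15% in knockout replicates 1, 2 and 3. The means were 3.26% ± 1.10 and 2.96% ± 0.352 (SD, n = 3 each; p of 0.7 by exact permutation, and of 0.7 when adjusted for 3 shares). Without wild-type replicate 3 the difference, knockout minus wild-type, was 0.206 points in place of -0.306. These are shares of counted fragments, so fewer fragments per cell and more of other fragments cannot be told apart.

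Within the internal tRFs of all origins, the mitochondrial ones took a smaller share in each knockout library than in any wild-type library. The values were 8.35%, 12.0% and 12.5% in wild-type and 6.27%, 7.72% and 8.04% in knockout replicates 1 to 3 (means 11.0% ± 2.28 and 7.34% ± 0.942, exact permutation p of 0.1, the smallest that 3 against 3 can give, adjusted p of 0.15). With MT-TF left out, a choice made after seeing the data, the shares were 6.16% ± 0.507 and 5.64% ± 0.364 and the groups overlapped. Of the mitochondrial counts alone, internal fragments made up 59.2% ± 8.94 in the wild type and 37.7% ± 7.71 in the knockout, also without overlap (exact permutation p of 0.1, adjusted p of 0.15). That total includes the 5' fragments of MT-TM, the tRNA for methionine, with 250, 82 and 60 counts in wild-type and 1009, 581 and 672 in knockout replicates 1 to 3. With those left out of the total, a choice also made after seeing the data, internal fragments made up 66.3% ± 6.19 in the wild type and 71.1% ± 4.89 in the knockout, and the direction turned.

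Summed over its internal fragments, 11 of the 22 genes had enough counts for the test (66 or more in all libraries), and 11 did not (57 or fewer). Of the 11 tested, MT-TH rose in the knockout and MT-TF and MT-TW fell in the quasi-likelihood test of edgeR (p adjusted by Benjamini-Hochberg over all 240 sums and fragments tested, threshold 0.05). The other 8 did not pass. Of all rows tested, 51.7% passed, 25% higher and 26.7% lower, so internal mitochondrial sums passed less often than that (3 of 11), a description that was not tested. The median log2 fold change, knockout minus wild-type, was -0.05 over the 11 sums and 0.02 over all rows tested.

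MT-TF, the tRNA for phenylalanine (mitochondrial chromosome, 577 to 647, plus strand), gave the most internal counts, from 100 fragments. It had 223, 260 and 371 counts in wild-type replicates 1, 2 and 3 and 82, 141 and 182 in knockout replicates 1, 2 and 3. Scaled with the trimmed mean of M-values to CPM, which are counts per 1000000 counts, these were 7571, 16337 and 18426 in the wild type and 4205, 8271 and 7806 in the knockout. Wild-type replicates 2 and 3 lay above all knockout libraries, while wild-type replicate 1 lay below knockout replicates 2 and 3, so the groups overlapped. The sum fell from 14111 ± 5760 to 6760 ± 2225 CPM, or -1.06 in log2 terms (SE 0.372; adjusted p = 0.0347, edgeR). It no longer passed without wild-type replicate 2 (adjusted p = 0.0698, edgeR) or 3 (0.0582), without knockout replicate 1 (0.148) or 2 (0.0687), and with library totals as the only scaling (0.0595).

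The internal fragments of MT-TF came almost wholly from 1 place. Of its 1259 counts, 1201 were of 80 fragments that began at positions 40 to 46, just 3' of the anticodon at positions 35 to 37. Position 40 alone held 394 counts and position 41 held 360, and position 56 was the most frequent end with 316 counts. Fragments that began at position 40 or 41 had 9216 ± 4322 CPM in the wild type and 3439 ± 1664 in the knockout, 2.68-fold apart. Those that began at 42 to 46 had 4456 ± 1210 and 2910 ± 854 CPM, 1.53-fold apart. By length, the forms of 16 to 18 nt had 9263 ± 4730 and 3342 ± 1957 CPM (2.77-fold), and the longer forms 4940 ± 1290 and 3402 ± 445 (1.45-fold). In each of these 4 splits the groups overlapped, and the splits were made after the values were seen, so they carry no test.

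Of the single fragments, 5 of 966 passed the filter on low counts, and the other 961 were too rare to test. A rare fragment passes that filter only through the group in which it is high. The number of calls among the 5 therefore says nothing of the others, and their p-values are not independent of that choice. All 5 passed the test, 2 higher and 3 lower, in a table where 53.6% of 235 fragments passed, 25.5% higher and 28.1% lower. The number lower was 8 without wild-type replicate 1, 1 without wild-type replicate 2 or 3, and 0 when knockout replicate 1 or 2 was omitted. Of those 8, 7 were from MT-TF and 1 from MT-TW.

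Both tested fragments of MT-TF end at position 56, and the longer has 1 more base at the 5' end. The longer, tRF-17-9ZFH691 (616 to 632), had 21, 35 and 72 counts in wild-type and 0, 5 and 27 in knockout replicates 1 to 3. The 0 of 20807 counts in knockout replicate 1 allows a share of up to 0.0144% (3 counts, counting error only). It fell from 2159 ± 1362 to 487 ± 606 CPM, or -2.04 in log2 terms (SE 0.796; adjusted p = 0.0489, edgeR). The shorter, tRF-16-7XO8Q6D (617 to 632), had 21, 44 and 54 counts in wild-type and 3, 13 and 21 in knockout replicates 1 to 3, and its log2 fold change was -1.71 (SE 0.599, edgeR adjusted p = 0.0316). In CPM the groups overlapped for both, through the low value of wild-type replicate 1 (722 CPM for each). Neither call held when wild-type replicate 2 (edgeR adjusted p = 0.0949 for the longer and 0.0990 for the shorter), wild-type replicate 3 (0.139 and 0.0693), knockout replicate 1 (0.153 and 0.142) or knockout replicate 2 (0.189 and 0.0936) was left out. The log2 fold change of the longer was -3.84 with knockout replicate 3 left out, -1.36 with knockout replicate 1 left out and -1.43 with wild-type replicate 3 left out, and that of the shorter was -1.14 without knockout replicate 1. The call of the longer also ended with DESeq2's Wald test (adjusted p = 0.250), with DESeq2 size factors in edgeR (0.0701) and with library totals as the only scaling (0.0866). That of the shorter also ended with library totals (0.0600).

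MT-TH (12138 to 12206, plus strand), which carries histidine, had 85, 35 and 72 counts in wild-type and 105, 106 and 132 in knockout replicates 1 to 3, over 105 fragments. In CPM these were 2886, 2199 and 3576 against 5384, 6218 and 5662, and each knockout library lay above each wild-type library. The sum rose from 2887 ± 688 to 5754 ± 424 CPM, or 0.99 in log2 terms (SE 0.255; adjusted p = 0.00872, edgeR). It passed under each alternative and with each library left out, with log2 fold changes of 0.81 to 1.17.

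The internal fragments of MT-TH reached no further than position 51. None of the 105 ended beyond it, and position 51 was the most frequent end with 195 of 535 counts. Starts fell into a group at positions 18 to 20 (44, 120 and 71 counts) and another at 26 to 29, around the 5' side of the anticodon at 31 to 33. Forms of 29 to 34 nt had 963, 797 and 1001 CPM in wild-type and 2952, 3429 and 2247 in knockout replicates 1 to 3, with no overlap (920 ± 108 and 2876 ± 595 CPM, 3.13-fold). Forms of 16 to 28 nt had 1883 ± 412 and 2533 ± 486 CPM (1.35-fold), and the groups overlapped. Count-weighted mean lengths were 23.6, 22.5 and 23.1 nt in wild-type and 27.2, 27.5 and 25.6 nt in knockout replicates 1 to 3. This split by length was chosen after the values were seen and carries no test.

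The fragment of MT-TH that could be tested, tRF-33-BF82Z4D7OOJ0DW (positions 19 to 51, 12156 to 12188), spans the anticodon arm. It had 8, 2 and 3 counts in wild-type and 22, 23 and 20 in knockout replicates 1 to 3, with no overlap. It rose from 184 ± 79.3 to 1102 ± 248 CPM, or 2.45 in log2 terms (SE 0.426; adjusted p = 0.00101, edgeR), and it passed under each alternative that could be fitted. This fragment reached the filter on low counts only through the knockout libraries, so its p-values are not independent of that choice. The form 1 base shorter at the 5' end, tRF-32-BQJE9UHY0DFK3, was below the filter. It had 7, 3 and 6 counts in wild-type and 13, 12 and 11 in knockout replicates 1 to 3 (242 ± 43.3 and 608 ± 120 CPM). The short tRF-17-Z4D7OO2 (positions 29 to 45), which lies inside both, had 11, 5 and 4 against 5, 7 and 16 counts, with overlap.

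MT-TE, the tRNA for glutamate (14674 to 14742, minus strand), had a similar long form, while its sum did not pass. Its 107 fragments had 60, 37 and 59 counts in wild-type and 64, 49 and 67 in knockout replicates 1 to 3, or 0.31 in log2 terms (SE 0.249; adjusted p = 0.322, edgeR). Within them tRF-29-RZYQHQ9M73KB (positions 26 to 54, 14689 to 14717), which covers the anticodon at 31 to 33, had 4, 5 and 0 counts in wild-type and 22, 16 and 17 in knockout replicates 1 to 3. The 0 of 18427 counts in wild-type replicate 3 allows a share of up to 0.0163%. It rose from 157 ± 167 to 921 ± 175 CPM, or 2.65 in log2 terms (SE 0.624; adjusted p = 0.00540, edgeR), and it passed under each alternative that could be fitted. It reached the filter on low counts only through the knockout libraries, so its p-values are not independent of that choice. It made up 64 of the 89 counts of MT-TE that began at position 26. Fragments of MT-TE with ends other than position 54 had 1930 ± 614 CPM in the wild type and 1746 ± 284 in the knockout. This split was made after the values were seen and carries no test.

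MT-TW, the tRNA for tryptophan (5512 to 5579, plus strand), gave 6 internal fragments, and 120 of its 128 counts ended at position 34, inside the anticodon at 33 to 35. It had 35, 30 and 21 counts in wild-type and 11, 9 and 22 in knockout replicates 1 to 3. In CPM these were 1188, 1885 and 1043 against 564, 528 and 944, with no overlap. The sum fell from 1372 ± 450 to 679 ± 230 CPM, or -0.96 in log2 terms (SE 0.360; adjusted p = 0.0434, edgeR). Most of it was tRF-16-JD22PZD (positions 19 to 34, 5530 to 5545), which had 28, 22 and 17 counts in wild-type and 10, 5 and 10 in knockout replicates 1 to 3. It fell from 1078 ± 341 to 407 ± 101 CPM, or -1.35 in log2 terms (SE 0.385; adjusted p = 0.0129, edgeR). As it reached the filter on low counts only through the wild-type libraries, its p-values are not independent of that choice. The sum did not pass without wild-type replicate 2 (adjusted p = 0.179, edgeR), knockout replicate 1 (0.139) or knockout replicate 2 (0.168) and under 5 other settings (0.0532 to 0.198), and that of the fragment without knockout replicate 1 (0.0507) or 2 (0.0657), with DESeq2's Wald test (0.103) and with no low-count filter (0.107).

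MT-TV, the tRNA for valine (1602 to 1670, plus strand), had the largest number of different internal fragments, 159. Its counts were 74, 31 and 98 in wild-type and 96, 70 and 121 in knockout replicates 1 to 3. In CPM the wild-type values were 2512, 1948 and 4867 and the knockout values 4923, 4106 and 5190, so wild-type replicate 3 lay among the knockout libraries. The log2 fold change was 0.61 (SE 0.331, edgeR adjusted p = 0.150), and without wild-type replicate 3 it was 1.09 (edgeR adjusted p = 0.00473). Ends at positions 68 and 69, the last bases before the added CCA, held 227 of its 490 counts, with 1603 ± 411 CPM in the wild type and 1932 ± 240 in the knockout. Those that ended earlier had 1488 ± 1151 and 2764 ± 348 CPM, and wild-type replicate 3 stood apart at 2811 CPM beside 722 and 930 in wild-type replicates 1 and 2. Position 59 was part of that, as an end with 0, 2 and 21 counts in wild-type and 17, 16 and 20 in knockout replicates 1 to 3. The split by end and position 59 were picked out after the values were seen and carry no test.

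The remaining 6 tested genes gave log2 fold changes of -0.31 to 0.46, and none passed. MT-TS2, a tRNA for serine that lacks the D-arm (12207 to 12265, plus strand), had 52, 33 and 32 counts in wild-type and 49, 24 and 44 in knockout replicates 1 to 3, or 1809 ± 245 CPM in the wild type and 1936 ± 554 in the knockout (log2 fold change 0.11, SE 0.280, edgeR adjusted p = 0.776). MT-TP, for proline (15956 to 16023, minus strand), had 44, 33 and 39 against 24, 20 and 50 counts, or 1835 ± 303 and 1516 ± 545 CPM (-0.24, SE 0.304, edgeR adjusted p = 0.532). MT-TY, for tyrosine (5826 to 5891, minus strand), had 23, 32 and 31 against 23, 21 and 23 counts, or 1444 ± 621 and 1133 ± 129 CPM (-0.31, SE 0.359, edgeR adjusted p = 0.4998), and 72 of its 153 counts ended at position 32, the last base of its anticodon. For MT-TK, for lysine (8295 to 8364, plus strand), the counts were 16, 14 and 17 against 11, 11 and 20 (756 ± 185 and 689 ± 152 CPM). For MT-TR, for arginine (10405 to 10469, plus strand), they were 17, 11 and 15 against 8, 16 and 14 (671 ± 85.7 and 650 ± 268 CPM). For MT-TD, for aspartate (7518 to 7585, plus strand), they were 19, 3 and 8 against 17, 9 and 10 (410 ± 229 and 610 ± 232 CPM). The groups overlapped in each of these 6 genes. At 66 to 234 counts per gene, small differences were not detectable.

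The 11 genes below the filter had 4 to 57 counts each. The most abundant was MT-TM, with 12, 6 and 5 counts in wild-type and 10, 15 and 9 in knockout replicates 1 to 3. In 2 of the 11 the groups did not overlap in CPM, beside 55.8% of all rows tested. These were MT-TL2, a tRNA for leucine, with 2, 3 and 2 counts in wild-type and 10, 4 and 7 in knockout replicates 1 to 3, and MT-TL1, the other tRNA for leucine, with 4, 2 and 5 against 1, 0 and 1. Both were picked out after their values were seen.

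Positions 16 and 17, counted along the tRNA, were covered by the 231 fragments that began at positions 2 to 16. Those that began at 2 to 15, which were tested as a class, were 198 in number and had 94, 68 and 68 counts in wild-type and 83, 64 and 92 in knockout replicates 1 to 3. Their log2 fold change was 0.16 (SE 0.227, edgeR adjusted p = 0.582), and the groups overlapped. The others, which began at 16, were tested with the next class. This class, with starts at positions 16 to 21 (176 in number), had 3685, 4978 and 5281 CPM in wild-type and 5807, 6649 and 6143 in knockout replicates 1 to 3, with no overlap. They did not pass the test (log2 fold change 0.42, SE 0.229, edgeR adjusted p = 0.148). Of all rows tested with the start classes, 59.4% did not overlap.

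Fragments that began at positions 22 to 33, in the 5' side of the anticodon arm or the anticodon itself in most of these tRNAs, were higher in the knockout. These 263 fragments had 4448, 4340 and 4245 CPM in wild-type and 6733, 6226 and 6101 in knockout replicates 1 to 3. They rose by 0.55 in log2 terms (SE 0.205; adjusted p = 0.0452, edgeR). They were the only 1 of 4 start classes to pass, in a table where 54.3% of rows passed and 59.4% did not overlap. The call ended with each of the 6 libraries left out in turn (edgeR adjusted p from 0.0516 to 0.109), with DESeq2's Wald test (0.115) and with no low-count filter (0.409), while the log2 fold change was 0.51 to 0.63 with each library left out. Without MT-TH and MT-TE the class had 2003 ± 338 and 2830 ± 190 CPM, still with no overlap, a value computed after seeing the data.

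Fragments that began at position 34 or later were 329 in number and held 52.4% of the counts. They had 11520, 20614 and 26109 CPM in wild-type and 10484, 14024 and 14474 in knockout replicates 1 to 3, with overlap through wild-type replicate 1. The log2 fold change was -0.58 (SE 0.318, edgeR adjusted p = 0.152), and it was -0.86 without wild-type replicate 1 (edgeR adjusted p = 0.0288). Without MT-TF this class had 5818 ± 1979 CPM in the wild type and 6462 ± 940 in the knockout, values computed after seeing the data.

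None of 3 classes of end position passed, in a table where 53.2% of rows passed. Ends at positions 26 to 44 gave or -0.01 in log2 terms (SE 0.230; adjusted p = 0.955, edgeR). Ends from 45 to the base that is 2 before the last encoded base gave -0.15 (SE 0.309, edgeR adjusted p = 0.717), and ends at the last encoded base or the one before it gave 0.10 (SE 0.245, edgeR adjusted p = 0.764). Ends up to position 25 had 8 counts in all. No internal fragment ended in the added CCA, since the deposited table types such pieces as 3' tRFs, 16 of whose 44 mitochondrial members end at the added C or CC.

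Relative to the anticodon, located in each gene by its triplet and a 7-base loop, fragments that cover it whole took a larger part of the internal mitochondrial counts in the knockout. They made up 38.6%, 28.3% and 24.9% in wild-type and 50.8%, 44.01% and 42.5% in knockout replicates 1 to 3, with no overlap (30.6% ± 7.13 and 45.8% ± 4.45). Fragments that start 3' of the anticodon made up 59.3% ± 7.97 and 44.3% ± 4.50, also with no overlap. The shares of one total are bound to each other, and MT-TF, whose fragments nearly all start 3' of the anticodon, took 42.6% ± 8.80 of that total in the wild type and 22.7% ± 6.45 in the knockout. This grouping was added after the data were seen and has no test.

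Internal mitochondrial fragments were longer on average in the knockout. The count-weighted mean length was 20.9, 19.9 and 19.5 nt in wild-type and 22.9, 22.3 and 21.3 nt in knockout replicates 1 to 3, with no overlap (20.1 ± 0.756 and 22.2 ± 0.786 nt, p of 0.1 by exact permutation, and of 0.2 when adjusted for 2 measures). Fragments of 16 to 18 nt made up 55.2% ± 6.66 of counts in the wild type and 42.2% ± 6.29 in the knockout, with overlap (exact permutation p of 0.2, adjusted p of 0.2). Of 5 length bands, 29 to 34 nt was the only 1 in which the groups did not overlap. It held 9.04%, 7.26% and 5.57% of counts in wild-type and 21.8%, 19.1% and 13.8% in knockout replicates 1 to 3.

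The difference in mean length was smaller without the genes described above. The genes to leave out were chosen after the values were seen, so these values are a description and not a test. Without MT-TF the means were 21.2 ± 0.497 and 22.9 ± 0.747 nt, again with no overlap. Without MT-TH and MT-TE they were 19.5 ± 0.765 and 20.6 ± 0.704 nt, and the groups overlapped. Without all 3 genes they were 20.3 ± 0.625 and 21.02 ± 0.424 nt, with overlap. Forms of 29 to 34 nt from genes other than MT-TH and MT-TE had 890 ± 215 CPM in the wild type and 1214 ± 211 in the knockout, with overlap.

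Internal tRFs of the same lengths with no mitochondrial match, 1742 in number, were slightly shorter in the knockout. Their mean length was 19.5 ± 0.112 nt in the wild type and 19.3 ± 0.142 nt in the knockout, and the part of them at 16 to 18 nt was 52.1% ± 2.26 and 60.5% ± 2.59. The difference in mean length between mitochondrial and other internal fragments was 1.31, 0.460 and -0.055 nt in wild-type and 3.80, 2.97 and 1.99 nt in knockout replicates 1 to 3, with no overlap (exact permutation p of 0.1, the smallest possible). For the part at 16 to 18 nt, the mitochondrial value minus the other was 3.09 ± 7.12 points in the wild type and -18.3 ± 7.80 in the knockout. The exact permutation p was again 0.1. This contrast was not among the planned comparisons, and its p-values were not adjusted.

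Internal counts were set against the 5' or 3' fragments of the same tRNA in 12 comparisons of a gene and a type with 10 or more counts of each. The measure was the log2 ratio of internal to other counts, with 0.5 added to both. In 4 of the 12 the groups did not overlap. For each of these 4 the exact permutation gave its smallest p, 0.1 (0.3 when adjusted). Among all sums and fragments tested with the gene sums, 55.8% did not overlap in CPM, though those values are not ratios. For MT-TE the ratio to 5' fragments was 1.66 ± 0.451 in the wild type and 3.89 ± 1.04 in the knockout, and its 5' fragments had 25, 12 and 13 counts in wild-type and 2, 7 and 3 in knockout replicates 1 to 3. For MT-TV the ratio to 5' fragments was 0.04 ± 0.597 and 0.98 ± 0.408. For MT-TP the ratio to 3' fragments was -1.49 ± 0.770 and -0.34 ± 0.095, and its 3' fragments had 82, 171 and 91 counts in wild-type and 31, 27 and 59 in knockout replicates 1 to 3. For MT-TM the ratio to 5' fragments was -3.82 ± 0.452 and -5.99 ± 0.693, with the 5' counts given above. In the other 8 comparisons the groups overlapped, and they included MT-TH against its 5' fragments (4.15 ± 1.02 and 4.51 ± 0.458) and MT-TF against its 3' fragments (5.09 ± 0.826 and 5.00 ± 0.369). The 5' fragments of MT-TH had 3, 4 and 2 counts in wild-type and 6, 3 and 5 in knockout replicates 1 to 3. The 3' fragments of MT-TF had 3, 12 and 12 against 2, 3 and 7. At such low counts the overlap does not show that these ratios were the same.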

How the data were processed

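Per the series' design text, small RNA libraries of A375 cells were read from one end and reads were assigned to human tRNA with MINTmap. The submitters' processing notes also name FastQC, cutadapt, DESeq2 and GRCh38 (hg38), and their versions and settings are not given in those sources. The authors deposited raw counts per fragment, not normalized, and these were used as they stand. MINTbase identifiers, which encode the sequence, were decoded for all 3443 fragments and matched exactly to the 22 mitochondrial tRNA transcripts of GENCODE release 29. As a check, all 113 mitochondrial 5' fragments began at base 1. Of 443 nuclear tRNA genes, 24 lay within a GENCODE exon and could be searched, and no internal mitochondrial fragment was found there. Nuclear transcripts in GENCODE were also searched, and 13 fragments lay inside one, as given above. Nuclear sequence outside these transcripts was not searched.

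Rows were kept by filterByExpr with a minimum count of 10, scaled by TMM and tested with edgeR 4.0.16 in R 4.3.3 (quasi-likelihood, two-sided, knockout minus wild-type). P-values were adjusted by Benjamini-Hochberg over the whole table, at 0.05. In the tables of sums, internal mitochondrial fragments were summed by gene, by start or by end. The other mitochondrial fragments were summed by gene and type in the gene table only, and all remaining fragments stayed single rows. CPM values carry the scaling of the table of their test, and those of other groupings the scaling of the fragment table. Standard errors are the log2 fold change divided by the root of F. Shares, lengths and ratios were compared by two-sided exact permutation over libraries. The test was also run on simulated counts in which every row had the same dispersion and fewer rows were changed than passed here. That run therefore does not check the test under the conditions of these libraries. Alternatives were DESeq2 1.42.0's Wald test and size factors, library totals, other filters, a replicate block, all lengths and leaving out each library.

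Values per library are given by rule for sums and fragments that passed the filter and for MT-TH, and sequences for these fragments, the 3 most abundant fragments of MT-TH and the most abundant fragment of each gene tested. MT-TM, MT-TL1 and MT-TL2 fall outside the rule and were chosen after their values were seen. The members and lists were chosen with earlier results of these data known.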

Additional observations from a re-analysis of the deposited data

How the results depend on the processing

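The labels do not say whether replicate numbers pair the libraries, and the correlations did not settle it. Deviations from the group means correlated at 0.371, -0.070 and 0.107 for numbers 1, 2 and 3. Knockout replicates 1 and 3 correlated best with the wild-type library of the same number. Knockout replicate 2 correlated best with wild-type replicate 3 (0.186). With a replicate block, 2 single fragments were higher and 3 lower, of gene sums 1 was higher and 1 lower, and of start classes 0 were higher. The number of gene sums lower, 2, was 1 with DESeq2 size factors, DESeq2's Wald test, no low-count filter or 50 or more counts in 3 libraries, 0 with library totals only, and 0 to 2 with a library left out, and the number higher was 1 to 2. The number of single fragments lower, 3, was 2 with DESeq2 size factors, 1 with library totals only or DESeq2's Wald test and 0 to 8 with a library left out, and no single fragment had 50 or more counts in 3 libraries. The number of start classes higher, 1, was 0 with DESeq2's Wald test, no low-count filter or any library left out, and the number lower was 0 to 1. The share of all counts turned to 0.456 points without MT-TF and ran from -0.890 to 0.206 with a library left out. The share of mitochondrial counts turned to 4.74 points with the MT-TM 5' fragments out of the total. Log2 ratio differences that changed sign with a library left out were MT-TF against 5' (-1.07 to 0.37) and 3' (-0.45 to 0.36), MT-TI against 5' (-0.16 to 0.85), MT-TW against 3' (-1.02 to 0.35) and MT-TH against 5' (-0.22 to 0.72). Uncalled log2 fold changes of gene sums that changed sign were those of MT-TR, MT-TK and MT-TS2. That of MT-TR was 0.0062 with DESeq2 size factors, 0.0043 with DESeq2's Wald test, 0.0654 with all lengths and -0.32 to 0.24 by library. By library, MT-TK ran from -0.32 to 0.0851 and MT-TS2 from -0.0678 to 0.34. The uncalled end classes also changed sign. Ends at 26 to 44 gave 0.0332 with DESeq2 size factors, 0.0342 with DESeq2's Wald test and 0.0250 with no filter. By library they ran from -0.12 to 0.11. Ends from 45 to the base that is 2 before the last encoded base ran from -0.42 to 0.0751 by library. Ends at the last 2 encoded bases ran from -0.0586 to 0.24 by library. The cause was not tested in any of these. Low counts also limited what could be tested, since 961 of 966 fragments and 11 of 22 sums did not pass the filter.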
